A study of Mus musculus with 96 samples.

Results

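The mitochondrially encoded genes are the rows of the count table whose symbol starts with mt-, 37 of the 38406 gene rows. They comprise 13 protein-coding rows, 2 rRNA rows and 22 tRNA rows, and the GENCODE M21 annotation places all 37 on the mitochondrial chromosome (chrM, GRCm38). The study sorted single bone marrow cells from the femurs and tibiae of C57BL/6 mice aged 9 to 12 weeks and sequenced 1 library per cell. There was 1 group, HSC1, of 96 cells in the Lin- c-Kit+ Sca-1+ fraction that lacked CD34, Flt3 and CD48 and carried CD150, a gate that enriches for hematopoietic stem cells. Of these, 92 cells passed the filters on technical measures. The labels give no treatment or control group, and no source used here says which mouse a cell came from, so the cells count as a single sample and relations between them are described with no p-value.

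The mitochondrial genome is a small circle that encodes core subunits of the respiratory chain, together with the rRNAs and tRNAs needed to translate them inside the organelle. Each strand is transcribed as a long precursor that is cut at the tRNAs, and the rRNAs and most of the mRNAs receive poly(A) tails. The other subunits of the same complexes are encoded in the nucleus, translated in the cytosol and imported. Quiescent hematopoietic stem cells are known for a low reliance on respiration. In single-cell RNA-seq the share of reads on these genes is also a common quality measure.

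The 92 cells held 739093 to 3473151 gene counts, with 4945 to 8727 detected genes. ERCC spike-ins, RNAs added in equal amount to every well, made up 0.377% to 2.64% of the gene and ERCC counts of a cell. Cell 18 stood apart, with the highest total of gene counts and the fewest detected genes, and values that rest on it are given with and without it. Of the 9 stem cell markers listed, all had counts, and their summed normalized read count was 716 at the lowest, 3865 at the median and 8859 at the highest. The 7 erythroid markers summed to 0 at the median and 1199 at the highest. Among them Hba-a1 and Hba-a2 were at 0, and Hbb-b2 was counted in 31 cells. The 6 T and NK cell markers summed to 0 at the median and 621 at the highest. Cd3e and Trbc1 were at 0, and Klrb1c was counted in 15 cells and Nkg7 in 7. The 8 neutrophil and monocyte markers summed to 1315 at the median and 3683 at the highest. Mpo, Elane and Ly6g were at 0, whereas Lyz2 was counted in 92 cells and Prtn3 in 90. The 6 megakaryocyte and platelet markers summed to 133 at the median and 8844 at the highest.

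The sequences of 3 members show why some of the counts cannot be assigned to a single gene. Stretches of the mitochondrial genome lie copied in nuclear chromosomes, and a read from a copied stretch matches both places. The annotation holds 7 such copies in a row on the minus strand of chromosome 1, between 24611535 and 24616197, in the same order as their sources between 6381 and 11042 of chrM. Over 4149 aligned bases they differed from the mitochondrial rows at 7 positions. The mt-Nd3 copy, Gm28438, differed at a single base, written T3C with positions counted from the first base of mt-Nd3. Both are printed 5′ to 3′ in the sense of the gene, as GENCODE M21 gives the transcripts, with capitals at the differing base, from chrM:9459-9519 and from chr1:24613059-24613119.
mt-Nd3: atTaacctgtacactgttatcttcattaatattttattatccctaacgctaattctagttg
Gm28438: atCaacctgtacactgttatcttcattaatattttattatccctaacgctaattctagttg

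The mt-Co1 copy on chromosome 1, Gm29216, starts inside the gene, and 6 of the 7 differences lie at this edge of the copied span. The capitals mark the differing bases at chrM:6381-6441 and chr1:24616137-24616197.
mt-Co1: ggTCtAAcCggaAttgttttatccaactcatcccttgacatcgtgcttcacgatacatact
Gm29216: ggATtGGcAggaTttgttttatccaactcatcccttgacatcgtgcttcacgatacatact

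A second copy of mt-Co1, Gm13340 on chromosome 2, covers all 1545 bases at an identity of 97.6% and has a row of its own in the table. Its first difference from mt-Co1 and the bases around it are shown with capitals at the differing bases, from chrM:5351-5411 and from the minus strand at chr2:22589564-22589624.
mt-Co1: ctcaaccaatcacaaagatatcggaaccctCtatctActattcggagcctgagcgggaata
Gm13340: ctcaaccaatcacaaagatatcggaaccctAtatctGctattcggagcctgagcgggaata

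For mt-Co2 a stretch of 61 bases was identical in 2 nuclear places. The bases at chrM:7113-7173 were the same in Gm28661 at chr1:24615405-24615465 and in Gm13341 at chr2:22587802-22587862, and no base is in capitals because none differed. Gm28661 matched the whole 681 bases that were aligned, whereas Gm13341 differed from mt-Co2 elsewhere.
mt-Co2: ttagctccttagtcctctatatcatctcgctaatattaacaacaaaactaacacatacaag

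Neighbors on the mitochondrial genome also share bases. The last 43 bases of mt-Atp8, in capitals, are the first bases of mt-Atp6 (chrM:7907-7969 is shown).
mt-Atp8 3′ end: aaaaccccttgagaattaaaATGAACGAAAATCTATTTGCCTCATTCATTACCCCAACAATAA
mt-Nd4l and mt-Nd4 overlap by 7 bases, and mt-Nd5 and mt-Nd6, which lie on opposite strands, overlap by 14. The study gives its depth in reads that map to a single place. The settings of the counting for strand and for reads that match more than 1 gene or place are not given in the sources used here. The library kit does not mark strand.

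In the 92 cells the 37 rows held 7638377 of 156628046 gene counts, or 4.88%. The share of a cell's gene counts was 2.28% at the lowest, 4.07% at the median and 10.4% at the highest. Of the mitochondrial counts, 52.1% lay on the protein-coding rows, 47.9% on the 2 rRNA rows and 0.0150% on the tRNA rows. All 13 protein-coding rows and both rRNA rows were counted in all 92 cells. By mean normalized read count, mt-Rnr2 ranked 2, mt-Co1 ranked 4, mt-Rnr1 ranked 5 and mt-Cytb ranked 7 among the 21211 genes with counts.

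**Figure D1:**
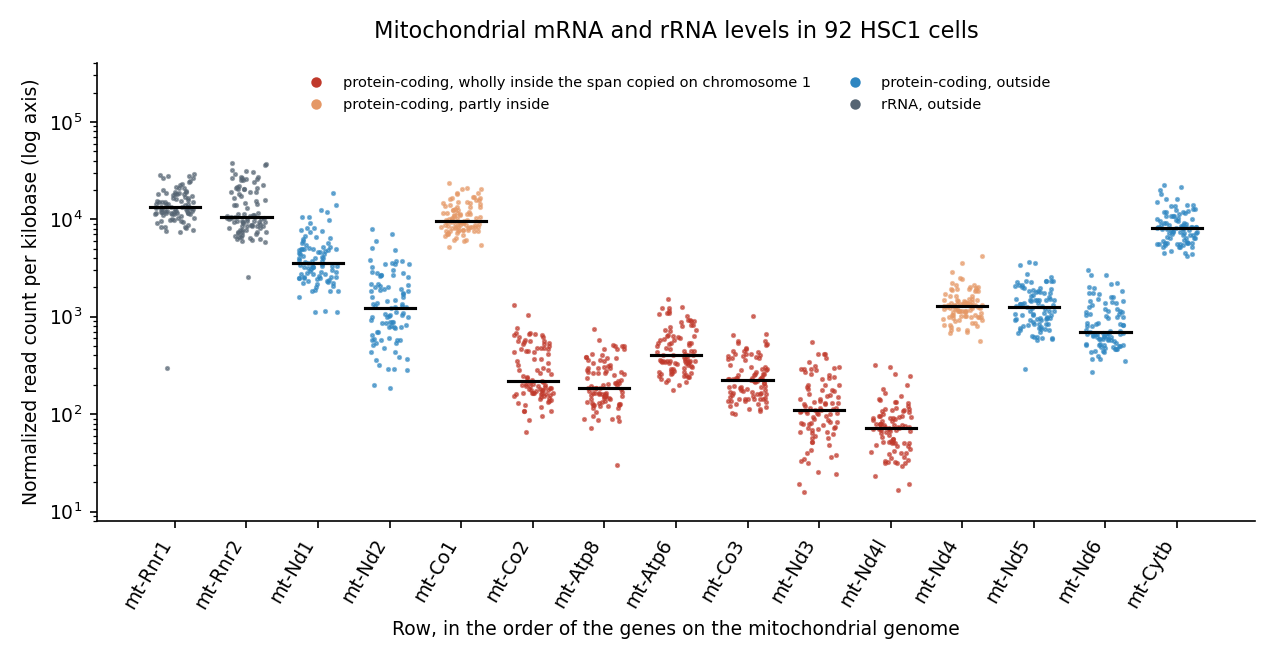
Normalized read count per kilobase (y axis, log scale) of the 15 mitochondrial mRNA and rRNA rows, in genome order on the x axis; each point is 1 of 92 cells, bars are medians, and colors give the position relative to the span copied on chromosome 1. The 6 rows wholly inside the span, mt-Co2 to mt-Nd4l, sit lowest, with mean levels between 84.8 and 518 per kilobase.

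The rRNAs form the large and small subunits of the mitochondrial ribosome. The 16S rRNA of the large subunit, mt-Rnr2 (chrM:1094-2675), had a normalized read count of 4011 at the lowest, 16814 at the median and 59310 at the highest cell. The 12S rRNA of the small subunit, mt-Rnr1 (chrM:70-1024), had 282, 12650 and 28193. Per kilobase their means were close, at 14395 ± 8327 for mt-Rnr2 and 14660 ± 5435 for mt-Rnr1 (SD over 92 cells). The medians per kilobase were 10629 for mt-Rnr2 and 13246 for mt-Rnr1, and mt-Rnr1 was above mt-Rnr2 in 63 of 92 cells.

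Among the 92 kept cells, a single cell stood apart in its rRNA. Cell 18 held the lowest value of both rRNA rows, and its ratio of mt-Rnr2 to mt-Rnr1 counts was 14.2, against 0.924 to 3.09 (median 1.47) in the other 91 cells. Its rRNA rows together took 0.176% of its gene counts and its protein-coding rows 2.10%. The part of its high total and few detected genes in the low rRNA was not tested. Its ratio of rRNA to protein-coding counts was 0.0839, against 0.559 to 1.61 in the other 91 cells. Cell 36, which was left out on technical measures, was also low in rRNA. Its ratio of rRNA to protein-coding counts was 0.0767 and that of mt-Rnr2 to mt-Rnr1 counts 6.29.

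Complex I, NADH dehydrogenase, takes 7 members, which varied widely in level. mt-Nd1 (chrM:2751-3707), a core subunit of the membrane arm, had a normalized read count of 1059 at the lowest, 3416 at the median and 17760 at the highest. mt-Nd2 (chrM:3914-4951) had 191, 1285 and 8279, the widest spread relative to its mean among the 13 protein-coding rows. mt-Nd5 (chrM:11742-13565) had 528, 2321 and 6636. Of these 3, mt-Nd1 was higher per kilobase than mt-Nd2 in 90 of 92 cells, whereas mt-Nd2 was above mt-Nd5 in 46 of 92 cells, so those neighbors in the order of levels did not separate.

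mt-Nd4 (chrM:10167-11544) had a normalized read count of 769 at the lowest, 1761 at the median and 5782 at the highest. Per kilobase of the whole gene it did not separate from mt-Nd5, which was above it in 47 of 92 cells. If all its counts came from the 502 bases outside the copied span, its mean level would be 3801 per kilobase, against 1392 for mt-Nd5. mt-Nd6 (chrM:13552-14070), the only protein-coding row on the minus strand, had 141, 361 and 1572. Because the library does not mark strand, reads of mt-Nd6 cannot be told apart from transcripts of the opposite strand through the same bases. mt-Nd3 (chrM:9459-9806) had 5.46, 38.5 and 190, and mt-Nd4l (chrM:9877-10173) had 4.96, 21.6 and 94.8. Per kilobase mt-Nd4 was 17.8 times mt-Nd4l in the median cell and above it in 92 of 92 cells, although the genes overlap on 1 strand.

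Complex III has 1 member. mt-Cytb (chrM:14145-15288), the cytochrome b that carries the quinone sites, had a normalized read count of 4822 at the lowest, 9391 at the median and 25663 at the highest. Per kilobase it was the protein-coding row next to mt-Co1, which was above it in 69 of 92 cells.

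Complex IV, cytochrome c oxidase, has 3 members of uneven level. mt-Co1 (chrM:5328-6872), the catalytic subunit, had a normalized read count of 7949 at the lowest, 14949 at the median and 36819 at the highest. mt-Co2 (chrM:7013-7696), which takes up electrons from cytochrome c, had 44.9, 150 and 898. mt-Co3 (chrM:8607-9390), the third core subunit, had 78.5, 178 and 804. Per kilobase mt-Co1 was 15.4 to 118 times mt-Co2 (median 40.6) and 20.4 to 96.0 times mt-Co3 (median 43.6), and it was above both in every one of the 92 cells. mt-Co2 and mt-Co3 were at similar levels per kilobase, mt-Co2 being above in 58 of 92 cells.

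Complex V, the ATP synthase, has 2 members, both in its membrane part. mt-Atp6 (chrM:7927-8607) had a normalized read count of 122 at the lowest, 277 at the median and 1042 at the highest. mt-Atp8 (chrM:7766-7969) had 6.09, 37.96 and 153. Per kilobase mt-Atp6 was 1.30 to 8.61 times mt-Atp8 and above it in 92 of 92 cells.

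The low levels followed the copied span. The 6 protein-coding rows that lie wholly inside it, mt-Co2, mt-Atp8, mt-Atp6, mt-Co3, mt-Nd3 and mt-Nd4l, had mean levels of 84.8 to 518 per kilobase (median 251). The 5 protein-coding rows outside it, mt-Nd1, mt-Nd2, mt-Nd5, mt-Nd6 and mt-Cytb, had 942 to 8953 (median 1702). The 2 rows partly inside, mt-Co1 and mt-Nd4, had 10962 and 1385. In 77 of 92 cells every row outside or partly inside was above every row wholly inside, and the groups overlapped when cells were pooled, with a highest value of 1530 (mt-Atp6) wholly inside and a lowest of 184 (mt-Nd2) elsewhere.

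Sequence identity went with position in all but 1 row. Of the 50-base windows of mt-Co2, 100% had an identical nuclear copy among annotated transcripts, and the figure was 99.5% for mt-Atp6, 99.9% for mt-Co3, 97.99% for mt-Nd3, 98.8% for mt-Nd4l, 62.2% for mt-Nd4 and 51.1% for mt-Co1. For mt-Nd2 it was 8.19%, for mt-Nd5 7.61% and for mt-Rnr2 1.04%, and for mt-Nd1, mt-Nd6, mt-Cytb and mt-Rnr1 it was 0%. The exception was mt-Atp8, which had 0% but lies between copied neighbors, and none of the 7 copies on chromosome 1 is annotated as its own. No nuclear genome was searched, so copies outside annotated transcripts were not counted. The part of the copies in the low levels was not tested. Since it is not stated how such reads were counted, the levels of the 6 rows cannot be read as the amounts of these mRNAs in the cells.

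The nuclear copies with a row of their own took few counts. mt-Co1 held 1708070 counts, against 11819 on Gm13340, its copy on chromosome 2, which was counted in 92 of 92 cells. mt-Nd4l held 2619 counts, against 1345 in 91 cells on Gm10222, its copy on chromosome 1, although the 294 aligned bases did not differ. These rows are uncertain, since near-identical genes can trade reads. Gm20594, which shares 16 windows of 50 bases with mt-Rnr2, held 843 counts in 91 cells. Gm13341, Gm4076, Gm13339, Gm11407 and Gm11512 held 224, 160, 156, 97 and 17 counts. The other 6 copies on chromosome 1 have no row in the table.

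The tRNA rows had few counts. Of 22 rows, 15 had 0 counts in all 92 cells, and 0 of 156628046 gene counts allows a share of up to 1.92e-06% for each, for counting error only. That limit holds for counts in these libraries and not for the amount of tRNA in the cells. How well the libraries capture tRNAs was not tested. The other 7 rows held 1148 counts. mt-Tp, the proline tRNA, took 1015 of these, or 88.4%, in 69 cells and with at most 47 in 1 cell. mt-Te, the glutamate tRNA, had 52 counts in 35 cells, mt-Tm, the methionine tRNA, 46 in 31 cells, mt-Tq, the glutamine tRNA, 22 in 15 cells, mt-Ta, the alanine tRNA, 8 in 5 cells, mt-Tc, the cysteine tRNA, 4 in 4 cells and mt-Tl1, a leucine tRNA, 1 in 1 cell.

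The tRNA counts lay mostly on the rows of minus-strand genes. Of the 8 tRNA genes on that strand, 5 had counts, 1101 in all, against 2 of the 14 on the plus strand. mt-Tp alone held 1015 of the 1101. Because the library does not mark strand, the strand of the transcripts behind these counts is not known. The 2 with the most counts, mt-Tp (chrM:15356-15422) and mt-Te (chrM:14071-14139), are printed in the sense of the tRNA with the anticodon in capitals.
mt-Tp: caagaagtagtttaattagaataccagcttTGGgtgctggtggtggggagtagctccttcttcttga
mt-Te: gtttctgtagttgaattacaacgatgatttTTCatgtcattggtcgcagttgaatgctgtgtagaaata
mt-Tp is the last annotated gene before the noncoding control region of the circle, and mt-Te follows mt-Nd6 with no gap. The normalized read count of mt-Tp had an r of -0.09 with that of mt-Cytb, the nearest mRNA row, over 92 cells on the log10 scale, and of -0.14 with the mitochondrial share. After counts were thinned to 739093 in each cell, mt-Tp was counted in 64 cells and mt-Te in 14.

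To ask which rows varied between cells beyond technical noise, the squared coefficient of variation of each gene was set against a curve fitted to the spike-ins, with a chi-square test over all 21211 genes with counts. Only mt-Nd2 was called variable (adjusted p = 0.0941 from the chi-square test with Benjamini-Hochberg adjustment), with a squared coefficient of variation 3.21 times the technical value. That is 1 of the 22 mitochondrial rows with counts, or 1 of the 13 protein-coding rows, where 2.64% of all genes with counts were called. The test asks for a biological coefficient of variation over 0.5, and its p-values measure these cells against counting and spike-in noise and say nothing of the spread between mice. The call was lost with total-count size factors (adjusted p = 0.6003), with all 96 cells (adjusted p = 0.232) and without cell 18 (adjusted p = 0.141), all from the same chi-square test.

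**Figure D2:**
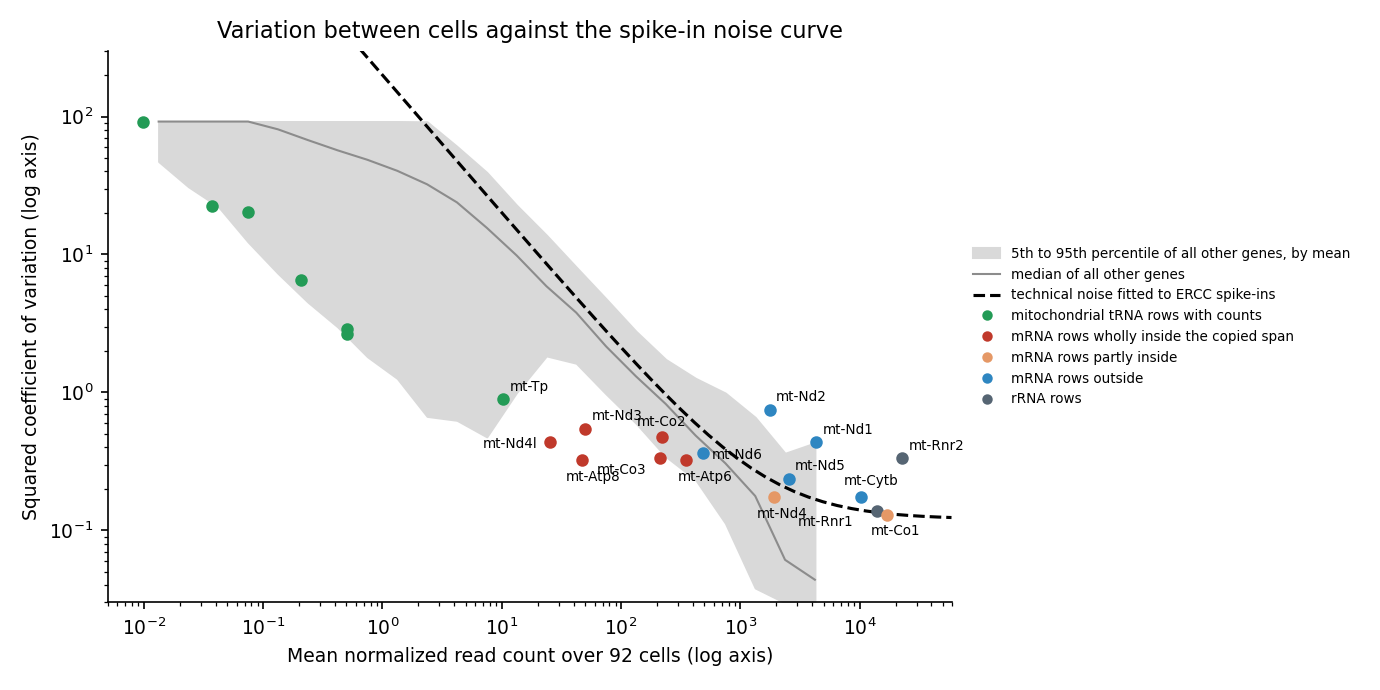
Squared coefficient of variation over 92 cells (y axis) against the mean normalized read count (x axis, both log scales) for the 22 mitochondrial rows with counts, with the spike-in noise curve (dashed) and the 5th to 95th percentile of all other genes (grey). mt-Nd2, mt-Nd1 and mt-Rnr2 lie farthest above the curve, at 3.21, 2.62 and 2.59 times its value, and the low mRNA rows and the tRNA rows lie below it.

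mt-Nd1 and mt-Rnr2 lay 2.62 and 2.59 times above the technical value without passing the test. mt-Cytb lay at 1.24, mt-Nd5 at 1.19, mt-Rnr1 at 1.02 and mt-Co1 at 0.983 times the technical value, so these abundant RNAs varied about as much as a spike-in of their level. Most other genes of high level varied less. The median squared coefficient of variation was 0.0611 for 55 other genes around a mean of 2371, against 0.236 for mt-Nd5. It was 0.0438 (95th percentile 0.430) for 26 others around a mean of 4217, against 0.437 for mt-Nd1. For mt-Cytb, mt-Co1 and both rRNA rows too few genes had a like mean. Of the 6 rows inside the copied span, mt-Atp6 lay at 0.468, mt-Co2 at 0.464 and mt-Co3 at 0.313 times the curve, and 11.6%, 10.9% and 3.40% of other genes within 1.5 times their mean had a lower squared coefficient of variation. mt-Nd3 lay at 0.132, mt-Atp8 at 0.0742 and mt-Nd4l at 0.0543 times the curve, which at their means is extrapolated, since the lowest spike-in mean in the fit was 66.99. mt-Nd3, mt-Atp8 and mt-Nd4l were counted in all 92 cells, where other genes within 1.5 times their mean were counted in a median of 42, 41 and 28 cells. Of those other genes, 1.47%, 1.29% and 2.40% had a lower squared coefficient of variation than mt-Nd3, mt-Atp8 and mt-Nd4l had.

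The mitochondrial rows moved together from cell to cell. Over the 78 pairs of protein-coding rows, Pearson's r of the log10 levels was 0.38 at the lowest, 0.62 at the median and 0.91 at the highest (92 cells, which share the size factor of each cell). The highest was between mt-Co2 and mt-Atp6 and the lowest between mt-Nd3 and mt-Nd4. The 15 pairs wholly inside the copied span had a median of 0.69, and the 21 pairs of the other rows one of 0.56. Among the pairs of the other rows, mt-Nd5 and mt-Nd6, which overlap on opposite strands, were highest at 0.74. When each row was taken as a share of the cell's mitochondrial counts, the median over all pairs was 0.13.

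**Figure D3:**
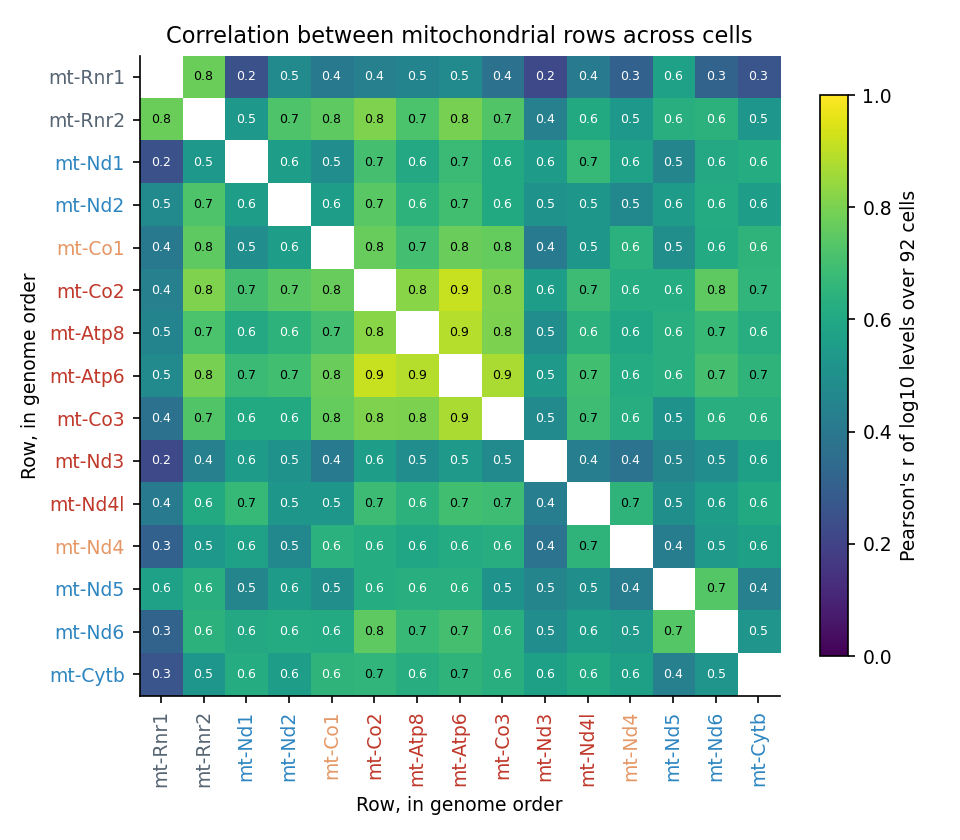
Pearson's r of log10(normalized read count + 1) between the 15 mRNA and rRNA rows over 92 cells, rows and columns in genome order, with the name colors of the plot of levels per kilobase. The block of mt-Co2, mt-Atp8, mt-Atp6 and mt-Co3 is brightest, with r up to 0.91, and mt-Rnr1 and mt-Nd3 are darkest.

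The rRNA rows moved with the protein-coding rows. The median r with the 13 protein-coding rows was 0.64 for mt-Rnr2 and 0.40 for mt-Rnr1, and without cell 18 it was 0.70 for mt-Rnr2 and 0.62 for mt-Rnr1, so most of the gap between them rested on that cell. The summed rRNA level had an r of 0.72 with the summed protein-coding level, and of 0.86 without cell 18. Cell 27 held the highest value of 6 of the 15 mRNA and rRNA rows and cell 94 that of 3, mt-Nd1, mt-Nd3 and mt-Nd4.

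Cells with a high mitochondrial share carried numbers in the middle of the series. Of the 52 kept cells numbered 19 to 71, 31 had over 5% mitochondrial counts, against 1 of the 40 others, cell 94. These limits were chosen after the values had been seen. In 8 blocks of 12 successive numbers, in order, the median share was 3.55%, 4.17%, 5.21%, 5.54%, 5.90%, 5.33%, 3.51% and 3.41%. The median ERCC share of the same blocks was 0.811%, 0.957%, 1.30%, 1.54%, 1.35%, 1.34%, 0.973% and 0.796%, and so moved with it. The median normalized read count of mt-Nd2, the called row, was 528 in the first block, 2417 in the fourth and 1059 in the last. The labels do not say what the cell numbers follow, and their part in the result was not tested.

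**Figure D4:**
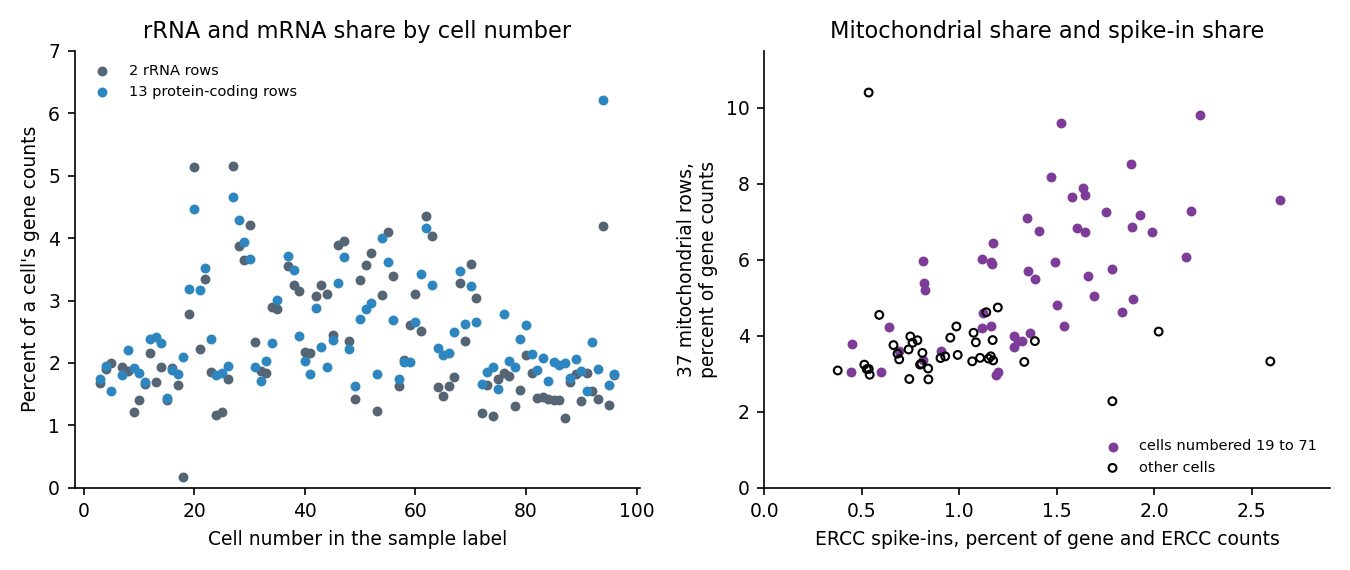
Left, percent of a cell's gene counts on the 2 rRNA rows and on the 13 protein-coding rows (y axis) against the cell number (x axis); right, percent of gene counts on all 37 mitochondrial rows against the percent of ERCC spike-ins, for 92 cells. Cells numbered 19 to 71 reach a share of 9.82%, and among the others only cell 94, at 10.4%, is over 5%.

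The mitochondrial share was higher in cells with a higher spike-in share, with an r of 0.53 and a Spearman's rho of 0.59 over 92 cells. Within the blocks of cell numbers r was 0.41. Both shares have the gene counts in their denominator. The mitochondrial counts per ERCC count moved the other way, with an r of -0.62 between their log10 and the ERCC share, and here the ERCC count is in both. A high spike-in share means few gene counts per spike-in count, and fewer cell RNAs and a poorer capture cannot be told apart. Per ERCC count the mitochondrial rows had 1.25 counts at the lowest, 4.02 at the median and 19.3 at the highest, against 34.03, 81.5 and 256 for all other genes. The log10 values of both ratios had an r of 0.64, and they share the ERCC count as denominator.

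Rows differed in this relation. The r with the spike-in share was 0.67 for mt-Co1 and 0.62 for mt-Rnr2, and 0.23 for mt-Nd1, 0.24 for mt-Nd5 and 0.17 for mt-Nd3. The mitochondrial share had an r of -0.06 with the log10 number of detected genes and of 0.17 with the log10 gene counts. It had an r of -0.18 with the first principal component of the variable genes.

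Relations to stem cell and cycle genes were weak for the mitochondrial share. The mitochondrial share had an r of 0.09 with Procr, the endothelial protein C receptor that marks stem cells, and of 0.12 with Ly6a, which encodes Sca-1. It was -0.19 for Mki67, a marker of cycling cells, and -0.04 for Vwf, a clotting factor of megakaryocytes and endothelium. For the marker scores it was 0.18 for stem cell, -0.16 for G2/M, -0.23 for megakaryocyte and platelet, -0.07 for erythroid, 0.02 for neutrophil and monocyte and -0.11 for T and NK cell genes. For the summed rRNA level the r with the stem cell score was 0.31, with 0.39 within the blocks of cell numbers and 0.19 without cell 18, and for the summed protein-coding level it was 0.08.

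The nuclear subunits of the same complexes showed weak or negative relations to the mitochondrial rows on this scale. Of 77 nuclear genes of complexes I to V, 0 were called variable, where 2.64% of all genes with counts were. At an unadjusted p under 0.05 from the chi-square test the count was also 0 of 77, against 4.27% of all genes with counts. The median squared coefficient of variation was 0.772 times the technical value for the 15 mitochondrial mRNA and rRNA rows, 6 of which lie wholly inside the copied span. It was 0.384 for the 77 nuclear genes, 0.459 for all genes with counts and 0.778 for all genes with a mean of at least 50. Of the 15 rows, 40% lay above the technical value, against 24.8% of all genes with a mean of at least 50. These sets were not matched for level, and mt-Atp8 and mt-Nd4l had means under 50. The summed protein-coding mitochondrial level had an r of -0.11 with the score of the 77 nuclear genes, and of -0.06 given the number of detected genes. The summed rRNA level had an r of -0.37 with the same score, of -0.39 given the number of detected genes and of -0.32 without cell 18, and the mitochondrial share one of -0.25. Of the single rows, mt-Rnr2 had -0.36, mt-Co1 -0.35 and mt-Nd1 0.21. For the protein-coding level the sign depended on the scaling, since r was 0.69 when genes were scaled by the spike-ins. That scaling leaves both the amount of RNA per cell and its capture in every gene, and their part in the sign was not tested.

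Single nuclear genes spread around 0, with a positive r in 27 of 77 and a median of -0.04. The highest was Ndufa4, a complex IV subunit, at 0.26, and the lowest Atp5h, a subunit of the ATP synthase stalk, at -0.34. Among the most abundant, Atp5b, the catalytic beta subunit of ATP synthase, had 1811 ± 738 normalized read counts (SD over 92 cells) and an r of -0.12. Cox4i1, a complex IV subunit, had 653 ± 248 and an r of -0.06.

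Genes that transcribe, process and use the mitochondrial RNAs ranged from low to abundant, and 1 of the 60 was called variable. Of the 14 genes of mtDNA transcription and replication found in the table, 0 were called, where 2.64% of all genes with counts were. Tfam, which packages mtDNA and starts its transcription, had 173 ± 156 normalized read counts in 79 of 92 cells and an r of -0.03 with the summed protein-coding level, and Polrmt, the mitochondrial RNA polymerase, had 37.3 ± 79.1 in 27 cells and an r of -0.10. Of 21 genes of RNA processing and stability 1 was called, 1110008L16Rik, at 71.3 ± 177 in 38 cells. Lrpprc, which stabilizes the mRNAs, was counted in 38 cells and its partner Slirp in 83, with r of -0.01 and 0.03. Of 19 aminoacyl-tRNA synthetases and 6 regulators of biogenesis 0 were called, and in these lists and that of mtDNA transcription 0 genes had an unadjusted p under 0.05 in the chi-square test, where 4.27% of all genes with counts had. Lars2, the mitochondrial leucyl-tRNA synthetase, was the highest of the synthetases at 2718 ± 1312, against 220 ± 165 for the next, Kars, which also serves the cytosol.

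Outside the 37 rows, few genes resembled the summed protein-coding level. Among 5082 genes with a mean of at least 50 and counts in at least 46 cells, r had a median of -0.02 and a 5th to 95th percentile of -0.20 to 0.17. The highest, at 0.83, was Gm13340, the copy of mt-Co1 on chromosome 2 with an identity of 97.6%. Whether its counts came from mt-Co1 was not tested. Next were Srgn, the core protein of a granule proteoglycan, at 0.67, Malat1, a nuclear noncoding RNA, at 0.51, Sub1, a transcriptional coactivator, at 0.47, and Hnrnpa2b1, an RNA-binding protein, at 0.46. Within the blocks of cell numbers these values were 0.61, 0.48, 0.39 and 0.41. Srgn itself had a normalized read count of 705 at the lowest, 2841 at the median and 13732 at the highest cell. Its median was 2603 in the first block, 5479 in the fifth and 2097 in the last.

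The lowest values were closer to 0. Rpl18, a protein of the cytosolic ribosome, had an r of -0.40, Sla2, an adaptor of receptor signaling, one of -0.40, Lgals9, a galectin, one of -0.39, Coro2a, an actin-binding coronin, one of -0.38, and Pdk1, the kinase that inhibits pyruvate dehydrogenase and so limits fuel entry into mitochondria, one of -0.37. Of these only Rpl18 was counted in all 92 cells, while Pdk1 was counted in 70 at 124 ± 168 normalized read counts.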

How the data were processed

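Single-cell libraries of 96 HSC1 cells were made after the Smart-seq2 protocol with Nextera XT and run on an Illumina HiSeq 2500. The deposited values are raw counts that the authors made per gene and per ERCC spike-in. They are not normalized and carry no molecular identifiers, so intervals and limits cover counting error only. Alignment used mm10 as the build, according to the submitters' processing notes, which list HTSeq 0.6.1, SAMtools 0.1.18 and STAR 2.3.0.

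Cells with gene counts or detected genes (log10) lower than the median by more than 3 scaled median absolute deviations, or with an ERCC share as much higher, were left out, and 92 remained. Counts were divided by median-of-ratios size factors, computed over 602 genes (15 of them mitochondrial) and over 8 spike-ins. Noise was fitted to 16 spike-ins by a gamma model and tested with the Brennecke chi-square statistic (adjusted p under 0.1, minimum biological coefficient of variation 0.5). The test was tested on simulated data, and its calls are less certain for genes with low means. Correlations across cells (Pearson's r, with Spearman's rho beside it or as an alternative) used log10(normalized read count + 1). Lists were scored by averaging the z scores of their genes. The first principal component was that of the 560 called genes, turned so that Procr correlated negatively with it. Levels per kilobase used GENCODE M21 gene lengths. Nuclear copies are annotated transcripts that share at least 50 identical successive bases with a member.

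The members and lists were chosen with earlier results of these data known. Genes named were drawn from the 37 rows and, in each list, from up to 3 by mean and any called. Others were taken from the markers with no counts and from the nuclear copies. Not every gene of these sets was named. The 5 highest and 5 lowest in r with the summed protein-coding level were named, as were Procr, Ly6a, Mki67 and Vwf. Single genes of the nuclear lists named otherwise were chosen after their values were seen. Python 3.11.15, NumPy 2.4.6, SciPy 1.17.1 and pandas 2.3.3 were used. Alternatives were other size factors, pseudocount 10, ranks, all 96 cells, thinned counts, other settings of the noise test and the removal of 2 cells. Within-block values, values without cell 18 and lengths outside the copied span were added after the data were seen. One marker list is not reported here.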

Additional observations from a re-analysis of the deposited data

Results flagged for a closer look

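The 4 cells left out on technical measures also held mitochondrial counts, and their shares were used in no result other than those with all 96 cells. Cell 1 had 6.49% of its 633845 gene counts on the 37 rows, cell 6 had 7.73% of 794679 and cell 36 had 6.44% of 4948251, all above the median of 4.07% in the 92 kept cells and within their range. Cell 2 had 3.38%, or 35 of 1035 gene counts. Each share is above the limit that a count of 0 allows in that cell, which is 0.290% in cell 2.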

How the results depend on the processing

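Of 69 alternative values for 12 results, 51 kept their call or sign and moved little (r by less than 0.1, counts within 1.5 times, shares by less than 1 SD over cells). The number of mitochondrial rows called variable, 1 in the main test, was 0 with total-count size factors, 0 with all 96 cells, 0 without cell 18, 2 (mt-Nd1 and mt-Nd2) with ERCC size factors for genes and 3 (also mt-Rnr2) when the minimum biological coefficient of variation was lowered to 0.25. The r of the summed protein-coding level with the nuclear OXPHOS score, -0.11, was -0.23 with total-count size factors, and turned to 0.69 with ERCC size factors and to 0.20 with all 96 cells. Its r with the rRNA rows, 0.72, was 0.56 with all 96 cells and 0.86 without cell 18. The median r among protein-coding rows, 0.62, was 0.13 for shares of mitochondrial counts. For the mitochondrial share, the r with the ERCC share, 0.53, was 0.41 within blocks of cell numbers, the r with detected genes, -0.06, turned to 0.0028 with all 96 cells, and the r with gene counts, 0.17, was 0.054 as Spearman's rho. The order of levels per kilobase had a rho of 0.89 with that on length outside the copied span, over the 7 rows that have such length. The cause of these shifts was not tested. The median share was 4.02% to 4.10% under its alternatives. No paired analysis was possible because there is 1 group. The tRNA rows hold few counts, and what limits them was not tested. The low rows inside the copied span rest on an unstated counting of reads with several matches. Without animal labels the spread between mice is unknown.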

Other observations

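The nuclear genes of the cytosolic ribosome were looked at after Rpl18 had been seen to have the lowest r. Of 76 Rpl and Rps genes with a mean of at least 50, 70 had a negative r with the summed protein-coding mitochondrial level. Over 92 cells their median r was -0.19, against -0.02 over the 5082 genes with such a mean and counts in at least 46 cells. These sets were not matched for level. Of the 76 genes, the lowest was Rpl18 at -0.40 and the highest Rpl22l1, a paralog of Rpl22, at 0.23. Their averaged z score correlated at r = -0.44 with the protein-coding level and at r = -0.04 with the rRNA level, and without cell 18 these were -0.48 and -0.44. The cells share their size factors, which rest in part on these abundant genes.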
